A study of Mus musculus with 9 samples.

Results

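Long noncoding RNA (lncRNA) genes are transcribed into long RNAs that are not known to code for protein. The genes described here are the rows of the authors' gene table with the biotype lncRNA that do not lie on X or Y and that were chosen by their level, a mean of at least 5 CPM (the usual depth-scaled count, relative to the library's total count) over the 9 libraries. This rule kept 194 genes of 11288 lncRNA rows and 56748 genes in all. It used the mean over all libraries and no contrast between phases. RNA was sequenced from epididymal adipose tissue of wild-type male C57BL/6J mice that were 8 weeks old when feeding began. All mice received a high-fat diet (HFD) for 8 weeks. One phase was sampled at that point (Pre), and the others after a further 1 week (WL1) or 2 weeks (WL2) of standard diet (SD), with 3 libraries in each phase. No group of lean mice kept on SD was among these libraries, nor one kept on HFD for the same further weeks. The WL1 and WL2 mice were thus also 1 and 2 weeks older than the Pre mice. Diet and elapsed time cannot be told apart in these comparisons.

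Some lncRNAs act as RNA itself, such as Neat1, which holds together the nuclear bodies called paraspeckles. Others are hosts whose introns or exons carry small nucleolar RNAs (snoRNAs) or microRNAs, and others still are transcribed opposite to, or away from the start of, a protein-coding gene. In white adipose tissue the RNA of adipocytes, macrophages, fibroblasts, endothelium and mesothelium is measured together, so fewer cells of a type and less RNA per cell cannot be told apart.

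Between 16434450 and 22729072 reads were counted per library. All 10 adipocyte markers were above 1 CPM, with a summed level of 29920 to 45191 CPM at Pre, 27365 to 33216 CPM at WL1 and 36430 to 36800 CPM at WL2. The 11 markers of epididymis and testis summed to at most 2.09 CPM in any library. The 10 macrophage markers summed to 1330 to 2557 CPM at Pre, 3168 to 5857 CPM at WL1 and 1626 to 3339 CPM at WL2, and the 8 mesothelial markers to 40.5 to 415, 50.7 to 268 and 288 to 834 CPM, and the part of these cells in the results was not tested. Pre replicate 2 stood apart, with 232 CPM of 10 T and B cell markers against 11 to 28.7 CPM in the other libraries. The counts of genes and the nuclear and imprinted lncRNAs it affects are given with and without it.

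Most of these genes were expressed at low levels. Their mean levels ranged from 5.01 to 1875 CPM with a median of 10.1 CPM, 94 genes lay between 5 and 10 CPM, and 5 genes were above 100 CPM. Scaled by length, the median was 3.34 FPKM (the authors' fragment counts scaled by gene length and depth), compared with 7.07 FPKM for the 11076 protein-coding genes with at least 5 CPM. Every gene had reads in every library, and the lowest single value was 1.2 CPM. A total of 145 genes had at least 5 CPM in each phase, and 15 did so in only 1 phase. Just inside the limit were Mir17hg (5.05 CPM), Sp3os (5.01 CPM) and Gm46565 (5.01 CPM), and just outside were 4930430E12Rik (4.94 CPM), Gm16973 (4.88 CPM) and 4833438C02Rik (4.87 CPM). Few of them are characterised: 65 carry a Rik name, 52 a Gm name and 31 only an identifier.

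By position, 69 of the 194 genes overlapped a protein-coding gene on the opposite strand and 12 on the same strand, 32 started within 1 kb of a coding gene's start on the opposite strand without overlapping it, and 81 did none of these. The sources used here do not say whether the libraries kept strand. Without strand, reads of the 69 opposite-strand genes cannot be told apart from reads of their partners, so the partner is named with each such gene.

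The counts of the 194 genes together made up a small share of each library. At Pre the share was 0.533%, 0.369% and 0.509% of the counts in replicates 1 to 3, at WL1 0.576%, 0.519% and 0.490%, and at WL2 0.643%, 0.676% and 0.648%. All 3 WL2 libraries were above all Pre and WL1 libraries. Neat1 alone took 0.056% to 0.178% of the counts at Pre, 0.164% to 0.211% at WL1 and 0.238% to 0.270% at WL2. Without Neat1 the share was 0.313% to 0.375% at Pre, 0.325% to 0.365% at WL1 and 0.384% to 0.410% at WL2, so that the WL2 libraries were still the 3 highest. As a sum over genes chosen by their level, the share was not tested.

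**Figure D1:**
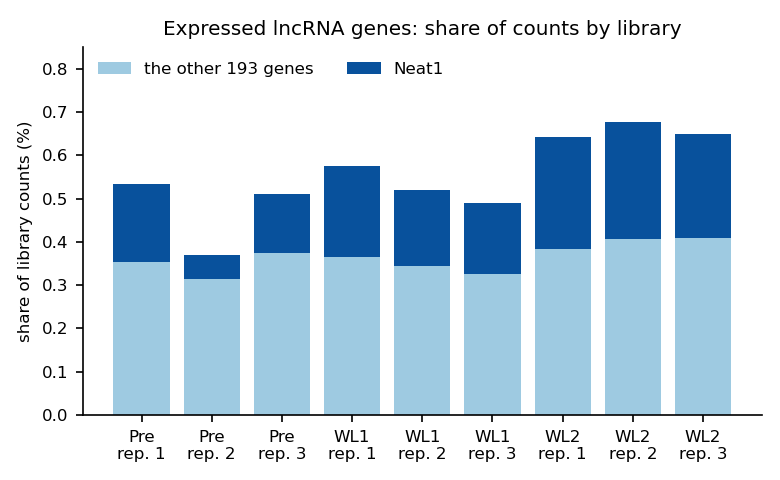
Share of the counts of each library (%) taken by the 194 expressed lncRNA genes, with Neat1 in dark blue and the other 193 genes in light blue, for 3 libraries per phase. The bars start at 0, and the 3 WL2 bars, from 0.643% to 0.676%, are the highest, while Pre replicate 2 has the lowest Neat1 share, 0.056%.

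Per length, the highest mean level was that of ENSMUSG00000120732, at 103 FPKM, followed by Neat1 at 81.8 FPKM, ENSMUSG00000121092 at 77.0 FPKM and Gm36860 at 71.5 FPKM. ENSMUSG00000120732, 5.30 kb from the kinase gene Hipk2, had 126 ± 1.59 FPKM at Pre, 91.6 ± 10.4 FPKM at WL1 and 92.3 ± 6.75 FPKM at WL2 (SD, n = 3). Neat1 and ENSMUSG00000121092 overlapped in range at Pre, with 57.9 ± 29.5 and 64.2 ± 17.5 FPKM (SD, n = 3), so their order was not larger than the spread between libraries. Next came 1700047G03Rik (53.8 FPKM), Gm10076 (52.4 FPKM), 2610016A17Rik (39.6 FPKM), the Pumilio-binding RNA Norad (34.2 FPKM), Gm15551 (26.7 FPKM) and ENSMUSG00000121141 (24.5 FPKM). Of these 10 genes, 1700047G03Rik spanned the widest range, from 126 ± 32.9 FPKM at Pre to 24.1 ± 2.36 at WL1 and 10.7 ± 2.21 at WL2 (SD, n = 3).

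The first question is how these genes differed after 1 week of SD. At WL1 against Pre, 21 of the 194 genes passed the edgeR quasi-likelihood test at a Benjamini-Hochberg adjusted p below 0.05, 3 of them higher and 18 lower. That is 10.8% of them, against 7.29% of all 18510 genes tested and 10.4% of the genes with at least 5 CPM, so the overall share was near the background. The lower genes were 9.28% of the 194, against 4.69% of all genes tested and 6.71% of those with at least 5 CPM, and the higher genes 1.55%, against 2.60% and 3.68%. The median log2 fold change of the 194 genes was 0.04, and that of all genes tested 0.02. Without scaling factors, a setting that moved the median of all genes to 0.12, 9 genes were higher and 15 lower. The count was 20 when Pre replicate 2 was left out. It fell to 9 when Pre replicate 1 was left out, to 7, 13 and 6 when WL1 replicates 1, 2 and 3 were left out in turn, and to 10 and 12 when WL2 replicate 2 or 3 was.

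The second question is the difference after 2 weeks of SD. At WL2 against Pre, 42 genes passed, 26 higher and 16 lower. This is 21.6% of the 194 genes, compared with 10% of all genes tested and 13.5% of the genes with at least 5 CPM. Higher genes were 13.4% of the 194, against 3.35% of all genes tested and 4.50% of those with at least 5 CPM, and lower genes 8.25%, against 6.66% and 9.05%. The median log2 fold change was 0.23 against 0.01 for all genes tested, and 138 of the 194 estimates were above 0. Among the 145 genes with at least 5 CPM in every phase, 14 were higher and 10 lower (16.6% in all). Of the 15 genes that reached 5 CPM in only 1 phase, 5 were higher and 3 lower. Without scaling factors, which moved the median of all genes to 0.16, 51 were higher and 11 lower. With DESeq2 43 were higher and 16 lower, and when Pre replicate 2 was left out the split was 17 higher and 18 lower. Leaving out WL2 replicate 2 gave 14 genes and leaving out WL2 replicate 3 gave 20.

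The third comparison asks what changed between the first and the second week. At WL2 against WL1, 18 genes passed, 14 higher and 4 lower, which is 9.28% of the 194 genes against 3.68% of all genes tested and 5.13% of the genes with at least 5 CPM. Higher genes were 7.22% of the 194, against 1.31% and 1.79%, and lower genes 2.06%, against 2.37% and 3.34%. The median log2 fold change was 0.21, compared with 0.00 for all genes tested. Among the 145 genes with at least 5 CPM in every phase, 10 passed (6.90%), 7 higher and 3 lower. Of the 15 genes that reached 5 CPM in only 1 phase, 4 passed, all higher. Such genes can meet the limit through the phase where they are high. With upper quartile factors 22 were higher and 2 lower. This count depended most on single libraries: it was 34 when Pre replicate 2 was left out, 5, 5 and 3 when WL1 replicates 1, 2 and 3 were left out in turn, 2 when WL2 replicate 3 was and 0 when WL2 replicate 2 was. In that last edgeR fit 46 of the 194 genes had an unadjusted p below 0.05. In all, 139 of the 194 genes passed in none of the 3 comparisons. The 3 comparisons share libraries, so their counts are not independent of each other.

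**Figure D2:**
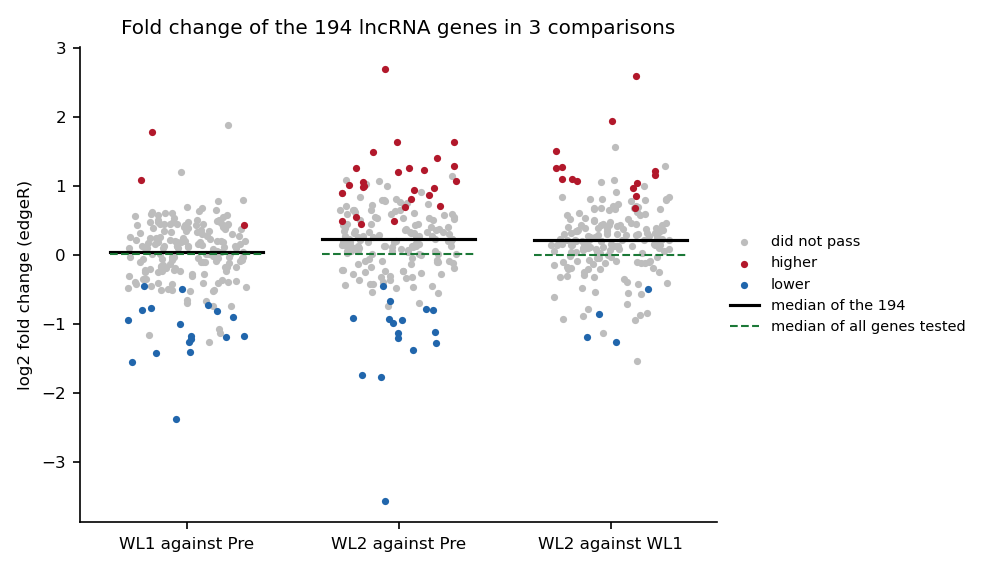
Fitted log2 fold change of each of the 194 lncRNA genes in the 3 comparisons, with 1 point per gene, spread sideways for legibility. Coloured points passed the edgeR test, solid lines are the medians of the 194 genes (0.04, 0.23 and 0.21) and dashed lines those of all genes tested, and the point at the bottom is 1700047G03Rik, at -3.56 in the WL2 against Pre comparison.

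The deepest fall was that of 1700047G03Rik (ENSMUSG00000099349, chromosome 15, 11964362 to 11970172 on the plus strand in the authors' table). It had 175, 148 and 247 CPM at Pre, 35.7, 40.1 and 41.6 CPM at WL1, and 20.4, 13.8 and 19.4 CPM at WL2. The 3 phases did not overlap. Relative to Pre it changed by -2.37 ± 0.21 on the log2 scale at WL1 (SE, edgeR, adjusted p = 0.00035) and -3.56 ± 0.22 at WL2 (adjusted p = 1.5e-05), and WL2 was lower than WL1 by a log2 difference of -1.18 ± 0.21 (adjusted p = 0.020). The calls against Pre were kept in all 9 fits that left out 1 library, while the WL2 against WL1 call was lost in 4 of them. The nearest coding gene, Sub1, a transcriptional coactivator gene 11.3 kb away, was 91.3 ± 4.88 CPM at Pre and 68.8 ± 8.79 CPM at WL2 (SD, n = 3), and it fell by 0.56 ± 0.12 on the log2 scale (SE, adjusted p = 0.018).

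Gm5627, 6.23 kb from the angiomotin family gene Amotl2, had 38.7, 30.0 and 52.8 CPM at Pre, 15.1, 17.4 and 12.1 CPM at WL1, and 15.5, 10.8 and 13.9 CPM at WL2. Every library on SD was below every Pre library, and WL1 and WL2 overlapped. Its log2 fold change was -1.54 ± 0.22 at WL1 (SE, edgeR, adjusted p = 0.0038) and -1.74 ± 0.23 at WL2 (adjusted p = 0.0010), and both calls were kept in all 9 leave-one-out fits. Amotl2 itself did not pass, with log2 fold changes of 0.05 and 0.34.

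Promoter windows are shown for the intergenic genes 1700047G03Rik, Gm5627 and B930092H01Rik, which were lower at WL2 than at Pre. These windows were taken by the size of the passing fold change in either direction. Each runs from 250 bases before to 50 bases after the start site given by RefSeq on GRCm38.p6, 5′ to 3′ on the gene's strand. They lie at chr15:11966812-11967111 on the plus strand, chr9:102739398-102739697 on the plus strand and chr9:61293760-61294059 on the minus strand. Capitals mark CCAAT on either strand (ATTGG on the opposite strand), a motif of core promoters. For 1700047G03Rik the RefSeq start lies 2786 bases from the start in GENCODE M21, and for Gm5627 and B930092H01Rik both annotations give the same start.
1700047G03Rik: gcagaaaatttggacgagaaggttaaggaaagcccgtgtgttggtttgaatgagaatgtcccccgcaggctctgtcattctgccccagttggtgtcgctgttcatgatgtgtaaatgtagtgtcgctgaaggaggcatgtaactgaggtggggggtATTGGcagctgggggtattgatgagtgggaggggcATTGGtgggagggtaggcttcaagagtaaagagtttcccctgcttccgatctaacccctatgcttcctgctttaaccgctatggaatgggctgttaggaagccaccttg
Gm5627: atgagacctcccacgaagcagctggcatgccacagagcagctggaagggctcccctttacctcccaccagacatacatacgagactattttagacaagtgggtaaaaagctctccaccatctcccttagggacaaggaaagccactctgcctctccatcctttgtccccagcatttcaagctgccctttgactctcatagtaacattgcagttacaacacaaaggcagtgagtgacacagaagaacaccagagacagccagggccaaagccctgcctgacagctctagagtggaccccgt
B930092H01Rik: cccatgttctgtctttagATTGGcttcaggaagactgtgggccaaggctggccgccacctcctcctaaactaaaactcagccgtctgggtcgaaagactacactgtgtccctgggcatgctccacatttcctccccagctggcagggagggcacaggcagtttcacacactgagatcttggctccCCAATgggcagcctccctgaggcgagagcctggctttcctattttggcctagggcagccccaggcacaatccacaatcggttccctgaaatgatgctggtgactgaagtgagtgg

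The windows of 1700047G03Rik and B930092H01Rik held 2 CCAAT matches each. None of the 3 windows held the GC box, TATA box, E-box or cyclic AMP response element described next, and that of Gm5627 held no CCAAT. Motifs were searched on both strands, and a promoter window was matched for 103 of the 194 genes. CCAAT occurred in 41.7% of these windows and in 37.4% of all 32851 windows of the same length. The GC box (GGGCGG) occurred in 52.4% against 35.7%, and the TATA box (TATAAA) in 14.6% against 13.6%. The E-box (CACGTG) was found in 8.74% against 7.15%, and the cyclic AMP response element (TGACGTCA) in 4.85% against 1.79%. A terminal oligopyrimidine run at the start site, searched on the gene's strand, was found in 2.91% against 2.51%. A divergent coding start within 1 kb was present in 60 of the 194 genes when those that overlap a coding gene are included. Among the 33 of them with a matched window, 75.8% held the GC box. The 29 matched genes that passed in at least 1 comparison held it in 51.7% and CCAAT in 44.8%.

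Further genes were lower than Pre with both weeks of SD. Ctcflos lies opposite Ctcfl, a paralogue of the insulator gene Ctcf, and had 93.5, 60.6 and 95.2 CPM at Pre, 42.6, 45.7 and 30.9 CPM at WL1, and 47.9, 51.0 and 62.2 CPM at WL2. The Pre and WL1 libraries did not overlap, while 1 WL2 library was above the lowest Pre library. The log2 fold changes were -1.17 ± 0.20 (SE, edgeR, adjusted p = 0.0087) and -0.78 ± 0.20 (adjusted p = 0.033), and the second was lost in 5 of 9 leave-one-out fits. Ctcfl did not pass, with -0.26 at WL1 and 0.45 at WL2. ENSMUSG00000121191 fell from 13.7 ± 5.1 CPM to 5.48 ± 0.38 and 6.63 ± 0.48 CPM (SD, n = 3), by log2 fold changes of -1.42 and -1.19. Gm20632 was 9.14 ± 2.3 CPM at Pre, 4.06 ± 0.85 CPM at WL1 and 4.65 ± 1.2 CPM at WL2 (SD, n = 3), so it met the limit of 5 CPM through Pre alone. The histone gene H2ac19 on the opposite strand is listed at 0 in all 9 libraries. B430219N15Rik, opposite Ginm1, fell by 1.18 and 1.27 on the log2 scale, and its partner Ginm1 did not pass, with -0.30 and 0.01. ENSMUSG00000120732, the gene with the highest FPKM, fell by only 0.44 and 0.45 on the log2 scale, with 8 and 5 of 9 leave-one-out fits losing the call.

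Other genes passed as lower than Pre at WL2 and did not pass at WL1. B430212C06Rik, opposite the lipid droplet protein gene Cidea, had 8.74, 7.4 and 7.17 CPM at Pre, 5.28, 6.55 and 5.64 CPM at WL1, and 3.59, 1.87 and 2.07 CPM at WL2. The phases did not overlap. Its log2 fold change at WL2 was -1.77 ± 0.27 (SE, edgeR, adjusted p = 0.0025), kept in all 9 leave-one-out fits. Cidea had 1.94 CPM on average and did not pass. AI506816 had 86.6, 103 and 101 CPM at Pre, 81.2, 83.9 and 87.6 CPM at WL1 and 62.4, 57.2 and 66.1 CPM at WL2, and fell by 0.80 ± 0.11 on the log2 scale at WL2 (SE, edgeR, adjusted p = 0.0014). Its transcript matches the gene 2700038G22Rik at 95.4% identity over its whole length, so reads may be split between them. ENSMUSG00000120992, divergent from the valyl-tRNA synthetase gene Vars, fell by 0.94 at WL2, from 44.7 ± 11 to 25.9 ± 5.4 CPM (SD, n = 3), and B430119L08Rik, opposite Serpina1c, fell by 1.37, a call that was lost in 6 of 9 leave-one-out fits.

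Among the genes that rose, 2010016I18Rik rose most after 2 weeks of SD. This gene (ENSMUSG00000091575, chromosome 3, 106389298 to 106393229 on the minus strand in the authors' table) lies opposite Dennd2d, which encodes a DENN domain protein of Rab regulation. It had 5.94, 2.66 and 3.43 CPM at Pre, 6.29, 5.39 and 2.18 CPM at WL1, and 25.2, 32.0 and 29.3 CPM at WL2. Pre and WL1 overlapped, and all WL2 libraries were above both. Its phase mean reached 5 CPM only at WL2, so it met the limit through the phase where it was high. The log2 fold change was 2.70 ± 0.36 at WL2 against Pre (SE, edgeR, adjusted p = 0.0014), kept in all 9 leave-one-out fits, and 2.59 ± 0.36 at WL2 against WL1 (adjusted p = 0.0080), lost only without WL2 replicate 2. Dennd2d moved with it, from 7.28 ± 1.90 CPM at Pre to 6.47 ± 1.82 CPM at WL1 and 19.3 ± 4.16 CPM at WL2 (SD, n = 3), with log2 fold changes of 1.25 against Pre and 1.52 against WL1 that both passed.

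Several other opposite-strand genes rose at WL2 against Pre. 5031434O11Rik, opposite the lysine methyltransferase gene Setd7, had 3.90, 1.30 and 3.61 CPM at Pre, 5.28, 6.22 and 4.86 CPM at WL1, and 8.76, 11.5 and 10.3 CPM at WL2, without overlap between the phases. Its log2 fold change at WL2 was 1.64 ± 0.33 (SE, edgeR, adjusted p = 0.013), while Setd7 fell by 0.71 ± 0.12 (SE, adjusted p = 0.0053). This was the only pair of the 9 in which both genes passed at WL2 against Pre and the directions were opposite. 9530026P05Rik, opposite the metalloproteinase gene Adamts9, had 5.22, 4.32 and 3.08 CPM at Pre, 6.74, 9.03 and 4.30 CPM at WL1, and 14.0, 16.2 and 13.1 CPM at WL2. Its WL2 libraries were above all others, and it rose by 1.63 ± 0.28 (SE, edgeR, adjusted p = 0.0049), whereas the estimate for Adamts9 was -0.00 ± 0.27 (SE).

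A530020G20Rik, opposite the choline transporter-like gene Slc44a3, was more abundant, with 40.5, 18.9 and 25.9 CPM at Pre, 48.3, 37.2 and 20.2 CPM at WL1, and 73.9, 98.1 and 93.8 CPM at WL2. It rose by 1.48 ± 0.32 at WL2 against Pre (SE, edgeR, adjusted p = 0.016), a call lost without Pre replicate 3, WL2 replicate 2 or WL2 replicate 3. Slc44a3 had 0.49 relative to Pre (adjusted p = 0.13) and rose by 0.93 between WL1 and WL2 (adjusted p = 0.030), where A530020G20Rik had 1.28 (adjusted p = 0.053, edgeR). 4930581F22Rik, opposite the sialyltransferase gene St3gal4, had 4.78, 3.33 and 3.83 CPM at Pre, 7.14, 5.58 and 4.63 CPM at WL1, and 13.3, 11.7 and 10.2 CPM at WL2, and rose by 1.41 ± 0.22 (SE, edgeR, adjusted p = 0.0027). St3gal4 rose by 0.75 ± 0.18 (SE, adjusted p = 0.027). Gm35290, opposite Anks1, rose by 1.29 ± 0.23, from 3.22 ± 0.36 CPM to 8.76 ± 0.76 CPM (SD, n = 3), and Anks1 had -0.31 (adjusted p = 0.099). The calls of 4930581F22Rik, Gm35290 and 9530026P05Rik at WL2 against Pre were kept in all 9 leave-one-out fits.

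Of genes away from a coding gene, ENSMUSG00000121093 had 15.8, 7.45 and 20.3 CPM at Pre, 36.3, 32.5 and 30.3 CPM at WL1, and 31.7, 40.2 and 41.4 CPM at WL2. All 6 libraries on SD were above the Pre libraries. Its log2 fold changes were 1.08 ± 0.28 (SE, edgeR, adjusted p = 0.044) and 1.22 ± 0.28 (adjusted p = 0.021), lost in 6 and 2 of 9 leave-one-out fits. Gm40761 rose at WL2, from 4.30 ± 1.0 to 11 ± 3.4 CPM (SD, n = 3), a call lost in 5 of 9 leave-one-out fits. Gm20559 had 28 ± 3.5 CPM at Pre, 40.6 ± 2.5 CPM at WL1 and 42.4 ± 2.7 CPM at WL2 (SD, n = 3), with log2 fold changes of 0.44 and 0.44 that were lost in 8 and 7 leave-one-out fits. Its transcript is 95.1% identical to the interferon-inducible gene Samd9l over 56.6% of its length, so reads may be split between these genes. AU022793 was the gene with the largest passing rise at WL1, with 1.37, 2.19 and 3.83 CPM at Pre, 6.29, 7.79 and 13.2 CPM at WL1, and 7.13, 2.77 and 2.98 CPM at WL2. Its phase mean reached 5 CPM only at WL1, so it met the limit through the phase where it was high. The call of its log2 fold change, 1.78 ± 0.47 (SE, edgeR, adjusted p = 0.049), was lost in 7 of 9 leave-one-out fits. The summed macrophage markers were also highest on average at WL1, but WL1 (3168 to 5857 CPM) and WL2 (1626 to 3339 CPM) overlapped. Of these 10 markers, 0 passed at WL1 against Pre by edgeR and 2 by DESeq2. The part of macrophages in the rise of AU022793 was not tested.

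Divergent genes start within 1 kb of a coding gene's start and run the other way, here without overlapping a coding gene. They made up 7 of the 42 genes that passed at WL2 against Pre, 5 higher and 2 lower. None of their coding partners passed by edgeR, 1 of them with an unadjusted p below 0.05. With overlapping genes included, 13 of the 60 genes with such a start passed, 9 higher and 4 lower. The shares, 21.9% of the 32 divergent genes and 21.7% of the 60, were near the 21.6% of all 194 genes. Among all genes with at least 5 CPM, 13.5% passed, 4.50% higher and 9.05% lower. AI480526, divergent from the histone methyltransferase gene Setd1b, had 16.9, 12.8 and 13.3 CPM at Pre, 23.8, 20.7 and 18.1 CPM at WL1, and 32.0, 30.8 and 30.5 CPM at WL2. The phases did not overlap, and it rose by 0.97 ± 0.14 on the log2 scale (SE, edgeR, adjusted p = 0.0023). 2900005J15Rik, divergent from Prkag2, a subunit gene of the energy sensor AMPK, rose by 1.26 ± 0.22, from 4.32 ± 1.2 to 11.5 ± 0.79 CPM (SD, n = 3). The calls of both were kept in all 9 leave-one-out fits. 2810013P06Rik beside Ankrd11 rose by 0.82, 5031425E22Rik beside the Kmt2e gene by 0.87 and 2610507I01Rik beside the mitochondrial ribosomal gene Mrpl55 by 0.48, while F730043M19Rik beside Atxn7l1 fell by 0.92. Of the genes in other positions, 6530402F18Rik, which overlaps the netrin family gene Ntng2, fell from 28.9 ± 3.6 to 16.2 ± 0.93 CPM (SD, n = 3), and 4933439C10Rik, opposite Zkscan17, rose from 4.54 ± 0.60 to 12.1 ± 2.7 CPM (Zkscan17 0.25, adjusted p = 0.26), with calls that were also kept in all 9 fits. These 8 genes were picked with their values in view. In all, 8 of the 26 higher and 5 of the 16 lower calls at WL2 were kept in every leave-one-out fit.

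**Figure D3:**
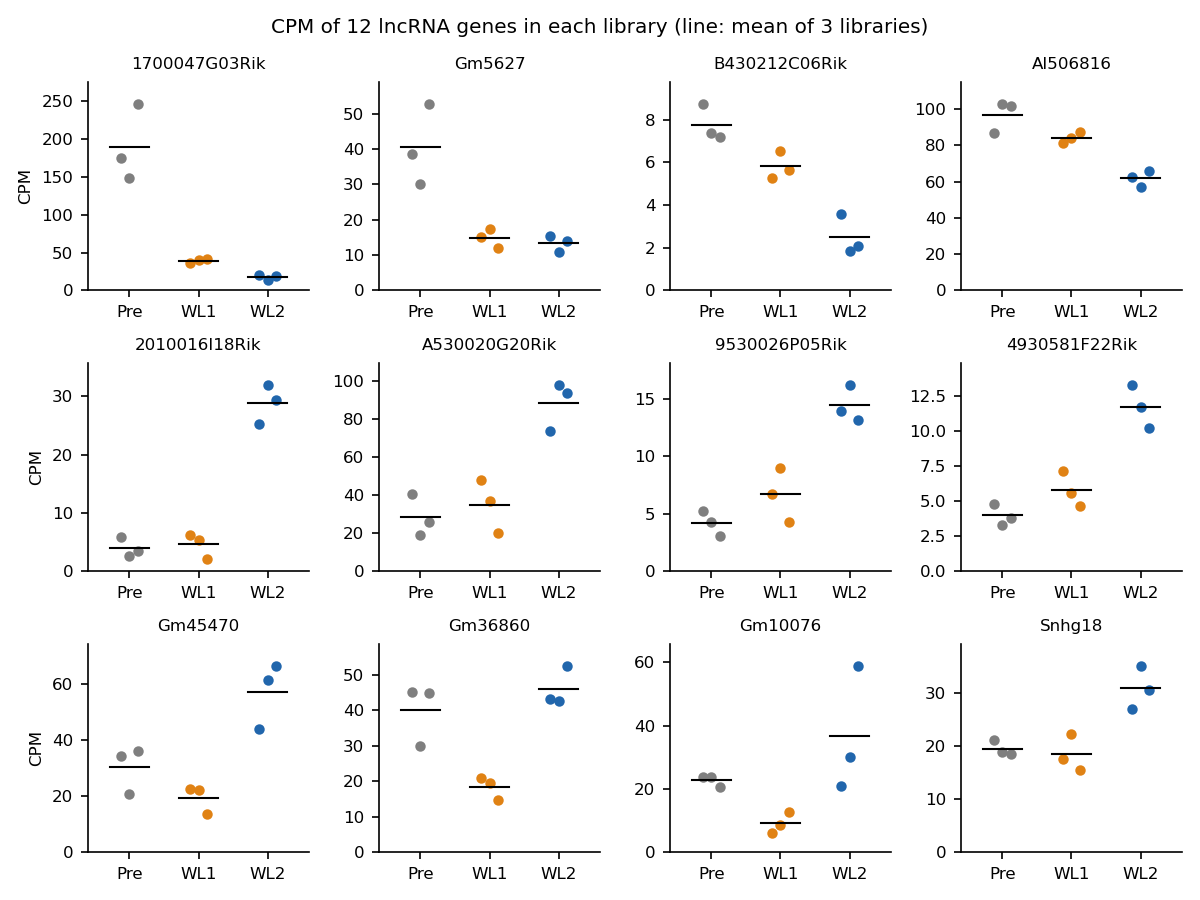
CPM of 12 lncRNA genes in each of the 9 libraries, with points for libraries, black lines for the mean of the 3 libraries of a phase and a separate axis from 0 for each gene. The top row shows genes that were lower at WL2 than at Pre, the middle row genes that were higher, and the bottom row genes that passed at WL2 against WL1, such as Gm45470 with 19.4 CPM at WL1 and 57.2 CPM at WL2.

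A further group was higher at WL2 than at WL1 and did not pass at WL2 against Pre. Gm36860 had 45.0, 29.9 and 44.9 CPM at Pre, 20.9, 19.6 and 14.7 CPM at WL1, and 43.1, 42.5 and 52.5 CPM at WL2. WL1 lay below both other phases, with a fall of 1.22 ± 0.19 on the log2 scale from Pre to WL1 (SE, edgeR, adjusted p = 0.0048) and a rise of 1.27 ± 0.19 from WL1 to WL2 (adjusted p = 0.0092). The estimate for WL2 relative to Pre was 0.05 ± 0.18 (adjusted p = 0.88). Gm10076 had 23.9, 23.7 and 20.8 CPM at Pre, 6.24, 8.76 and 12.6 CPM at WL1, and 20.9, 30.1 and 58.9 CPM at WL2. It rose by 1.93 ± 0.36 at WL2 against WL1 (SE, edgeR, adjusted p = 0.023), a call lost in 4 of 9 leave-one-out fits. Its transcript is 99.5% identical to Rpl41, a ribosomal protein gene, over its whole length, and Rpl41 had log2 fold changes of -0.22, -1.23 and -1.01 in the 3 comparisons. How reads were divided between the copies is not given, so the values of Gm10076 are uncertain.

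Gm15551, opposite the kinase gene Camk2d, went from 16.5 ± 2.7 CPM at Pre to 9.17 ± 3.1 CPM at WL1 and 20.1 ± 0.96 CPM at WL2 (SD, n = 3), and Zbtb11os1, opposite the zinc finger gene Zbtb11, from 5.73 ± 0.73 to 3.51 ± 0.54 and 7.83 ± 0.89 CPM (SD, n = 3). At WL2 against WL1 they rose by 1.07 and 1.11 on the log2 scale. Zbtb11 itself was 12.5, 15.0 and 15.3 CPM on average and passed in no comparison, nor did Camk2d (0.19 between WL1 and WL2). B430010I23Rik, opposite Mtus1, rose by 1.22 between WL1 and WL2, a call lost in 7 of 9 leave-one-out fits, and Mtus1 had 0.49 (adjusted p = 0.20). Each of these genes was lower at WL1 in every library than at WL2. Summed marker levels moved too. The mesothelial markers were higher in all WL2 than in all WL1 libraries (288 to 834 against 50.7 to 268 CPM). So were the adipocyte markers (36430 to 36800 against 27365 to 33216 CPM). Of the 10 adipocyte markers, 4 passed as lower at WL1 than at Pre. At WL2 against WL1, 3 passed as higher and 1, Lep, as lower. In that comparison 0 of the 8 mesothelial markers passed by edgeR or DESeq2, with all 8 at an unadjusted p below 0.05 by edgeR. All 10 macrophage markers had lower estimates at WL2 than at WL1, and 0 passed by edgeR or DESeq2, with 5 at an unadjusted p below 0.05 by edgeR. The part of these cells in the differences was not tested.

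Gm45470 (ENSMUSG00000109674, chromosome 8, 27718714 to 27730360 on the plus strand in the authors' table) lies opposite Adrb3, the beta-3 adrenergic receptor through which catecholamines stimulate lipolysis in rodent adipocytes. It had 34.4, 20.6 and 36.1 CPM at Pre, 22.6, 22.1 and 13.6 CPM at WL1, and 43.8, 61.4 and 66.3 CPM at WL2. The WL2 libraries were above all others. From WL1 to WL2 it rose by 1.5 ± 0.25 on the log2 scale (SE, edgeR, adjusted p = 0.016), a call lost in 3 of 9 leave-one-out fits. Relative to Pre the estimates were -0.74 ± 0.25 at WL1 (adjusted p = 0.10) and 0.76 ± 0.25 at WL2 (adjusted p = 0.081). Adrb3 had 465 ± 51.2, 324 ± 116 and 1010 ± 157 CPM (SD, n = 3), with log2 fold changes of -0.62, 0.97 and 1.59, of which the last 2 passed. Without strand, the reads of Gm45470 and Adrb3 cannot be told apart.

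Next, the 187 genes whose nearest coding gene was also tested were set beside that neighbour. Across these pairs Pearson's r of the log2 fold changes was 0.34 at WL1 against Pre, 0.28 at WL2 against Pre and 0.33 at WL2 against WL1, and Spearman's rho was 0.34, 0.27 and 0.34. The pairs are not independent, since they share libraries and, where they overlap, possibly reads. For opposite-strand overlaps r was 0.29, 0.36 and 0.32, for divergent starts 0.25, 0.33 and 0.26, for genes with neither 0.40, 0.19 and 0.34, and for the 12 same-strand overlaps 0.21, 0.27 and 0.44. In the 187 pairs the neighbour passed 16 times at WL1 against Pre, 30 times at WL2 against Pre and 13 times at WL2 against WL1. Of all genes with at least 5 CPM, 10.4%, 13.5% and 5.13% passed in these comparisons, though some neighbours were below 5 CPM. The lncRNA gene passed 20, 41 and 18 times, and among the 187 pairs both genes passed 3, 9 and 2 times. Whether neighbours of passing genes passed more often than other genes was not tested. Nor was it tested whether r was higher than between genes that are not neighbours.

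Beside the pairs already described, these were AU022793 with Lrp12 (1.78 and 1.13), Gm15417 with the transcription factor gene Zbtb7b (-0.90 and -0.72) and Gm6277 with Cables1 (-1.19 and -0.68), all as log2 fold changes from Pre to WL1. At WL2 against Pre they were Gm17491 with the phosphate transporter gene Slc20a2 (1.00 and 0.57), A330023F24Rik with the complement regulator gene Cd46 (1.07 and 1.03), B930092H01Rik with the corepressor gene Tle3 (-1.11 and -0.55), ENSMUSG00000120732 with Hipk2 (-0.45 and -0.79) and B430119L08Rik with Serpina1c (-1.37 and -3.56), although Serpina1c had only 0.480 CPM on average. The genes Gm15417, Gm6277, Gm17491 and A330023F24Rik were picked for this pairing once their values were known. Zbtb7b was lower again at WL2, by -1.03, whereas Gm15417 had returned to 0.14 (adjusted p = 0.68) and differed from WL1 by 1.04 (adjusted p = 0.023, edgeR).

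**Figure D4:**
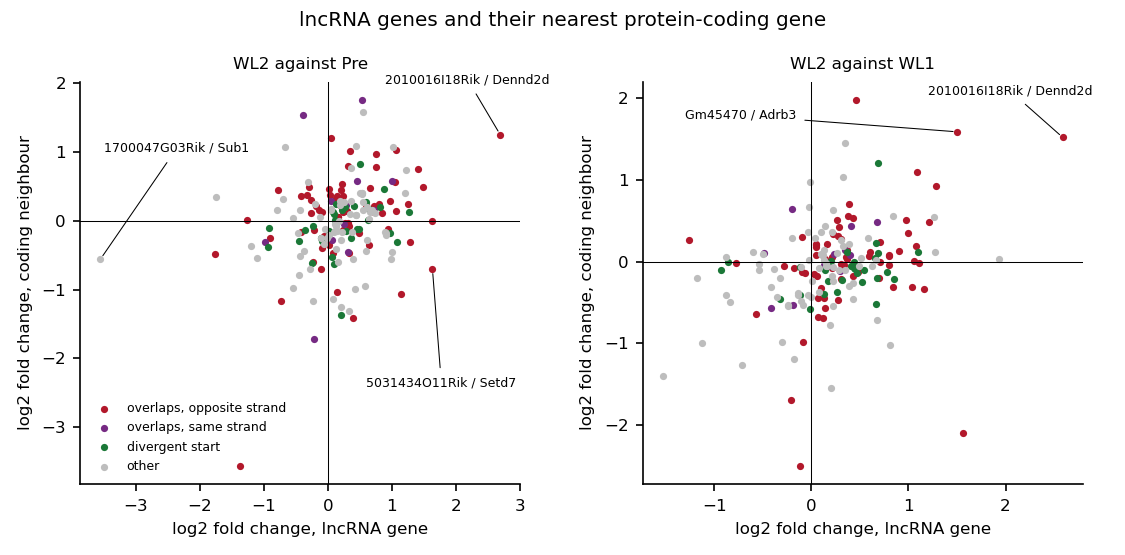
Log2 fold change of 187 lncRNA genes (horizontal) and of the nearest protein-coding gene of each (vertical) at WL2 against Pre and at WL2 against WL1, coloured by position. The points scatter widely, with Pearson's r of 0.28 and 0.33, and labelled pairs include 5031434O11Rik, which was higher while Setd7 was lower.

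By position class, 18 of 69 opposite-strand genes passed at WL2 against Pre, 12 of them higher, as did 7 of 32 divergent genes, 3 of 12 same-strand genes and 14 of the 81 others. At WL1 against Pre the counts were 9, 1, 1 and 10, and the 9 opposite-strand genes were all lower. At WL2 against WL1 they were 9, 4, 0 and 5, and for the same-strand genes edgeR gave an unadjusted p below 0.05 for 4 and DESeq2 called 2. For comparison, 13.5% of all genes with at least 5 CPM passed at WL2 against Pre, 4.50% as higher. At WL1 against Pre 10.4% of them passed, 6.71% as lower, and at WL2 against WL1 5.13%. Whether the classes differed from this background or from each other was not tested. The median log2 fold change at WL2 against WL1 was 0.30 for opposite-strand genes, 0.39 for divergent genes and 0.12 for the others.

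From 6 lists of known lncRNAs, 27 genes were among the 194. Of these 27, 2 passed the edgeR test, Dleu2 at WL2 against Pre and Snhg18 at WL2 against WL1. Of all genes with at least 5 CPM, 13.5% passed in the first of these comparisons and 5.13% in the second. Whether the known lncRNAs passed less often than other genes was not tested. DESeq2 called Neat1, Airn, Snhg17, Snhg18 and Snhg20 as well at WL2 against Pre. Neat1 had 1785, 560 and 1346 CPM at Pre, 2109, 1755 and 1644 CPM at WL1, and 2591, 2698 and 2383 CPM at WL2. The WL2 libraries were above all others, but Pre replicate 2 was far below the other Pre libraries. From Pre to WL2 the estimate was 0.90 ± 0.32 on the log2 scale and did not pass (SE, edgeR, adjusted p = 0.11). It was 0.55 (adjusted p = 0.066) when Pre replicate 2 was left out and 1.29 (adjusted p = 0.034) when Pre replicate 1 was, and with DESeq2 the adjusted p was 0.027. None of 7 proteins of the paraspeckle passed in any comparison by edgeR or DESeq2, and 1 had an unadjusted p below 0.05 by edgeR, at WL2 relative to Pre.

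Malat1, which resides in nuclear speckles, had 99.8, 196 and 143 CPM at Pre, 167, 121 and 156 CPM at WL1, and 116, 119 and 116 CPM at WL2. Its highest value was in Pre replicate 2, and it passed in no comparison, with adjusted p of 0.84, 0.18 and 0.32. Without that library its log2 estimates relative to Pre went from -0.08 to 0.18 at WL1 and from -0.47 to -0.20 at WL2. Norad had 162 ± 2.9, 194 ± 8.2 and 187 ± 1.9 CPM (SD, n = 3). From Pre to WL1 the estimate was 0.16 ± 0.09 on the log2 scale (SE, edgeR, adjusted p = 0.31) although the libraries did not overlap. The transcripts of Norad and Meg3 have near-identical copies (Gm7292 and Gm27000), so their reads may be split. Meg3, with 33.5 to 113 CPM at Pre, and Rian, with 20.2 to 45.1 CPM, both from the imprinted Dlk1-Dio3 domain, varied widely within Pre. Without Pre replicate 2 the WL2 estimate relative to Pre went from 0.38 to 0.05 for Meg3 and from 0.23 to 0.11 for Rian, and neither passed. Peg13 had 64.4 ± 13, 67.6 ± 9.3 and 89.0 ± 6.6 CPM (SD, n = 3) and did not pass (adjusted p = 0.22 for WL2 relative to Pre by edgeR).

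Airn, the antisense transcript that silences Igf2r in cis, had 3.08, 2.76 and 4.75 CPM at Pre, 6.91, 5.39 and 5.58 CPM at WL1, and 6.23, 6.64 and 6.51 CPM at WL2. All SD libraries were above the Pre libraries, yet the log2 fold changes of 0.65 ± 0.22 and 0.72 ± 0.22 did not pass (SE, edgeR, adjusted p = 0.11 and 0.071), while DESeq2 gave an adjusted p of 0.039 at WL2. Igf2r, the receptor gene it overlaps, rose by 0.81 ± 0.16 from Pre to WL1 (SE, adjusted p = 0.015) and was lower at WL2 than at WL1 by a log2 change of -0.68. Of 10 coding genes beside imprinted lncRNAs that were tested, the only other to pass by edgeR was Trappc9, which Peg13 overlaps, with log2 estimates of -0.59 and -0.45 relative to Pre. DESeq2 called 3 of the 10 at WL1 and 2 at WL2 relative to Pre, where edgeR called 2 and 1.

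None of the 12 snoRNA host genes passed against Pre, while 1 had an unadjusted p below 0.05 at WL1 and 3 at WL2 by edgeR, and DESeq2 called 0 and 3. By edgeR 10.4% and 13.5% of all genes with at least 5 CPM passed in these 2 comparisons. Whether the 12 hosts passed less often than other genes was not tested. Snhg18, the host divergent from the semaphorin gene Sema5a, had 21.2, 18.9 and 18.5 CPM at Pre, 17.6, 22.3 and 15.6 CPM at WL1, and 27.1, 35.2 and 30.5 CPM at WL2. It rose by 0.69 ± 0.15 at WL2 against WL1 (SE, edgeR, adjusted p = 0.039), a call lost in 5 of 9 leave-one-out fits, and was 0.51 ± 0.15 against Pre (adjusted p = 0.061). Gas5, the most abundant host, had 58.7 ± 7.9, 55.3 ± 7.6 and 59.4 ± 4.9 CPM (SD, n = 3). Snhg17 (0.46 and 0.45) and Snhg20 (0.25 and 0.91) did not pass relative to Pre at WL1 or WL2, and for Snhg1, Snhg5, Snhg8, Snhg12, Snhg15, Zfas1 and Epb41l4aos the estimates at WL2 against Pre lay between 0.10 and 0.26. Snhg6 had -0.42. Of 8 snoRNP core proteins, Nhp2 alone passed by edgeR, at -0.82 ± 0.18 at WL2 against Pre (SE, adjusted p = 0.019), and of 10 proteins of nonsense-mediated decay Smg9 alone by edgeR, at -0.44 at WL2 against WL1. DESeq2 also called 1 of the 10 at WL2 relative to Pre.

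A microRNA gene lay inside 14 of the 194 genes by GENCODE M21. The RNA sequencing measures the host transcript, not the mature microRNA. Dleu2, host of miR-15a and miR-16, had 11.8, 9.58 and 11.7 CPM at Pre, 16.5, 15.8 and 14.2 CPM at WL1, and 16.2, 17 and 18.3 CPM at WL2. From Pre to WL2 it rose by 0.49 ± 0.13 on the log2 scale (SE, edgeR, adjusted p = 0.041), a call lost in all 9 leave-one-out fits. A330023F24Rik, host of miR-29b and miR-29c, had 2.58, 2.08 and 4.49 CPM at Pre, 5.79, 4.52 and 5.02 CPM at WL1, and 8.14, 5.55 and 7.61 CPM at WL2, and rose by 1.07 ± 0.29 at WL2 (SE, edgeR, adjusted p = 0.044), a call lost in 8 of 9 leave-one-out fits. Both host genes overlap a coding gene on the opposite strand, Kcnrg, which had under 1 CPM and a log2 estimate of -0.18 (adjusted p = 0.90), and Cd46. The mature microRNAs of the 2 hosts are shown because each host carries a pair with 1 seed, the bases 2 to 8 in capitals that pair with targets. Mir100hg and Mir99ahg are shown because they carry matching sets, among them miR-125b-5p, which is the same in both.
mmu-miR-15a-5p: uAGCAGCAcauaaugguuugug
mmu-miR-16-5p: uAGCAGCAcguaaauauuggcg
mmu-miR-29b-3p: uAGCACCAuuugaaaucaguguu
mmu-miR-29c-3p: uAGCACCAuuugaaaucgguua
mmu-miR-100-5p: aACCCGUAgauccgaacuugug
mmu-miR-99a-5p: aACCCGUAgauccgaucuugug
mmu-miR-125b-5p: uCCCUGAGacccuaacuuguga

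These sequences are from RefSeq on GRCm38.p6. Mir100hg, which holds the genes of miR-100, let-7a-2 and miR-125b-1, had 19 ± 4.6, 23.2 ± 4.4 and 27.7 ± 5.0 CPM, and Mir99ahg, with miR-99a, let-7c-1 and miR-125b-2, had 6.10 ± 2.0, 5.59 ± 1.1 and 7.83 ± 2.0 CPM (SD, n = 3). Neither passed in any comparison. Mir17hg, host of the miR-17-92 cluster, had 3.54 ± 1.4, 4.71 ± 0.60 and 6.91 ± 1.2 CPM and an estimate of 0.81 ± 0.27 from Pre to WL2 (SE, edgeR, adjusted p = 0.094). Mir22hg had 34.9 ± 9.5, 42.9 ± 2.6 and 33.4 ± 0.41 CPM, and Mir142hg, host of a microRNA of blood cells, 5.61 ± 0.99, 7.26 ± 2.8 and 4.57 ± 2.0 CPM (SD, n = 3), without a call for either. None of 9 proteins of microRNA processing passed by edgeR, with 1 at an unadjusted p below 0.05 in each comparison, and 1 passed by DESeq2 at WL2 relative to Pre.

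**Figure D5:**
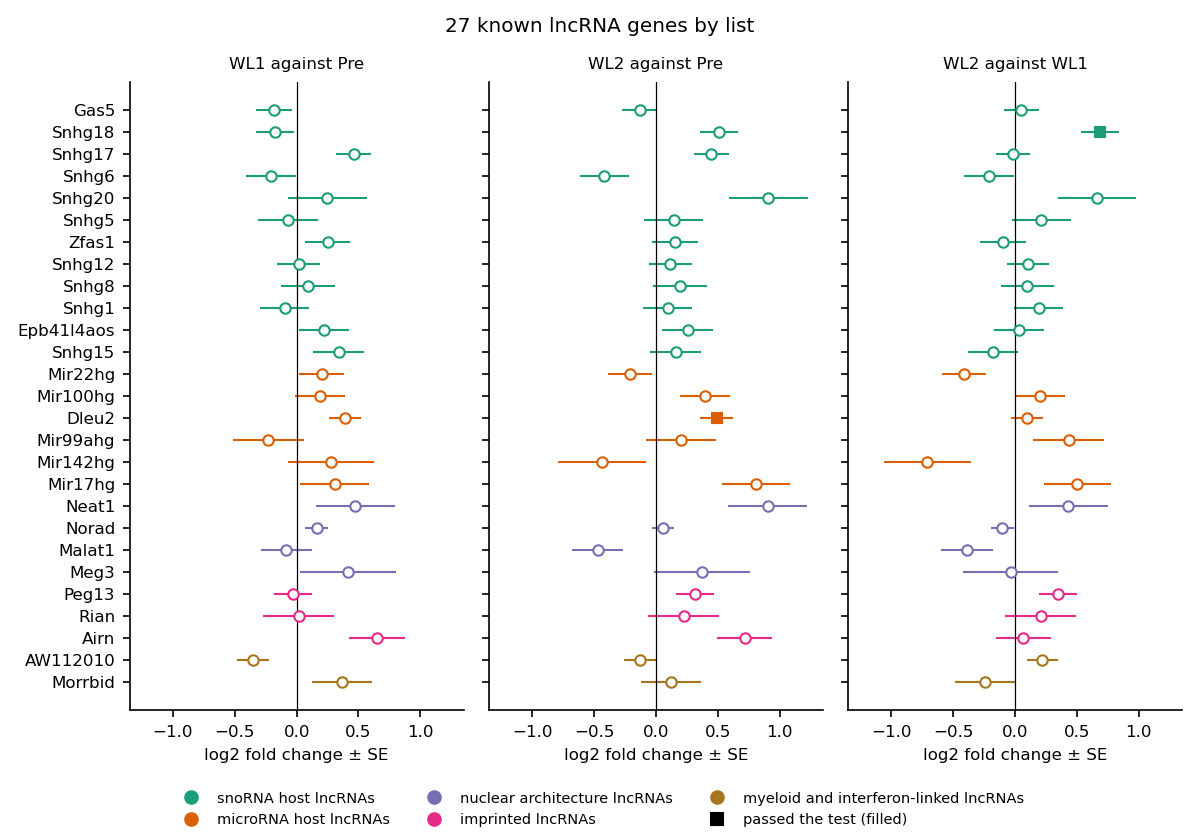
Log2 fold change with its standard error for 27 known lncRNA genes in the 3 comparisons, coloured by the first list that holds each. Filled squares passed the edgeR test, which were Dleu2 at WL2 against Pre (0.49) and Snhg18 at WL2 against WL1 (0.69).

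None of the 4 listed lncRNAs linked to myeloid cells or interferon (Neat1, Mir142hg, Morrbid and AW112010) passed in any comparison by edgeR. At WL1 and at WL2 relative to Pre 1 had an unadjusted p below 0.05, and DESeq2 called Neat1 at WL2. Morrbid, which restrains Bcl2l11 in short-lived myeloid cells, had 5.13 ± 1.3, 7.10 ± 1.9 and 6.21 ± 0.58 CPM, and the interferon-inducible AW112010 had 34.5 ± 2.5, 29.0 ± 3.6 and 35.0 ± 3.2 CPM (SD, n = 3), with adjusted p between 0.13 and 0.78 in the 3 comparisons. The 12 HOX and lineage lncRNAs of the list all had means below 5 CPM, the highest being Hotairm1 at 4.30 CPM, so none was among the 194, and neither was any of the ribosomal RNA-related loci listed. Of the listed names, Firre (X chromosome) and Tug1 and Snhg11 (protein-coding in the table) were outside the rule.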

How the data were processed

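RNA of epididymal adipose tissue was measured in 9 libraries, 3 per phase, grouped and numbered from the sample labels. The authors deposited raw counts and FPKM for each gene in the same libraries. The submitters' processing notes name CASAVA, TopHat2, HISAT, HISAT2, GRCm38 and mm10, while no source used here names the counting program, strand setting or RNA selection. Only 1435 of the 52073 Ensembl genes that are also in GENCODE M21 (GRCm38) have matching coordinates. Positions are therefore those of the authors' table with no build named, and microRNA and snoRNA genes inside lncRNAs were found by Ensembl identifier (161 of 194 matched). Promoter and microRNA sequences came from RefSeq tables on GRCm38.p6.

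The quasi-likelihood test of edgeR 4.0.16 under R 4.3.3 was run on the 18510 genes that reached 0.5 CPM in any library (glmQLFit, glmQLFTest, TMM factors of 0.933 to 1.07, 1 model over 9 libraries, no covariates; common dispersion 0.0478), with Benjamini-Hochberg adjustment over all of them and a threshold of 0.05. Nothing in the labels states whether the libraries of a phase came from separate mice, so p-values measure the spread between libraries. Near-identical copies (identity of at least 95% over at least 50% of a transcript) were searched in 161 genes with BLAST 2.17.0+ and found for 13. The fits were tested on simulated data. At a log2 size of 1, edgeR recovered 74 of 100 changed genes at WL1 against Pre. It recovered 37 of 50 at WL2 against Pre and 32 of 50 at WL2 against WL1. At a log2 size of 2 it recovered 99 of 100, 49 of 50 and 49 of 50. Of the simulated calls, 5.46%, 6.52% and 3.57% were false.

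Genes named are all members of 8 lncRNA lists written from general knowledge, the 6 largest rises and 6 largest falls among the genes past the threshold in each comparison, the 10 with the highest mean FPKM, antisense names past the threshold, and the 3 genes on either side of 5 CPM. At most 4 promoters of passing genes that overlap no coding gene were to be shown, taken from the largest fold change in either direction down. That of Gm40761, a gene that rose, was left out because its RefSeq start lies 5361 bases from the GENCODE start. That of 1700047G03Rik, at 2786 bases, was kept, and the selection set no cut-off for this distance. The genes and lists were chosen with earlier results of these data known. The alternatives were other filters, DESeq2 1.42.0, RLE, upper quartile or no factors, a block for replicate number, limma 3.58.1 on log2(FPKM + 1) and log2(FPKM + 0.1), the compared phases alone, other CPM limits and leaving out each library. At 5 CPM a library holds few reads of a gene, so counting error is wide there.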

Additional observations from a re-analysis of the deposited data

Results flagged for a closer look

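The change from Pre differed between 1 and 2 weeks of SD in 18 of the 194 genes, by the edgeR test of WL2 against WL1 itself. The log2 difference was positive for 2010016I18Rik (2.59), Gm10076 (1.93), Gm45470 (1.5), Gm36860 (1.27), Gm40761 (1.26), B430010I23Rik (1.22), Gm35290 (1.16), Zbtb11os1 (1.11), 2310010J17Rik (1.10), Gm15551 (1.07), Gm15417 (1.04), 4930581F22Rik (0.97), 2810013P06Rik (0.85) and Snhg18 (0.69). It was negative for B430212C06Rik (-1.26), 1700047G03Rik (-1.18), ENSMUSG00000120992 (-0.85) and AI506816 (-0.50). Without WL2 replicate 2 none of these calls was kept.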

How the results depend on the processing

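No fitted fold change that passed the test reversed its sign under the alternatives, but without Pre replicate 2 the 26 higher and 16 lower genes at WL2 against Pre became 17 and 18. The count of genes past the threshold was 21 at WL1 against Pre, and 34 with DESeq2, 13 with the 2 phases alone, 39 and 13 with limits of 2 and 10 CPM, and 6 to 23 with 1 library left out. At WL2 against Pre it was 42, and 75 and 22 with limits of 2 and 10 CPM, and 14 to 38 with 1 library left out. At WL2 against WL1 it was 18, and 33 without a filter, 41 with DESeq2, 33 with the 2 phases alone, 28 and 11 with limits of 2 and 10 CPM, and 0 to 34 with 1 library left out. The limits change how many genes are counted, and the cause of the other shifts was not tested. Without Neat1 the mean share of counts was 0.348%, 0.345% and 0.400% at Pre, WL1 and WL2, against 0.471%, 0.528% and 0.656%. The replicate numbers did not pair the libraries (correlations of deviations from -0.28 to 0.11 over all genes and from -0.46 to 0.24 over the 194), and the replicate block gave 13, 33 and 13 genes in the 3 comparisons. Of the values of single genes under the alternatives, 2988 kept a call in its direction or, without a call, stayed within 1 standard error of the reported estimate. A call was lost in 242 and gained in 73, and 60 without a call moved by more than 1 standard error. For values without a call, direction was not part of this count. Relative to their level, genes near 5 CPM have the widest counting error of the 194.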
